A study of Mus musculus with 12 samples.

Results

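The 2'-5'-oligoadenylate synthetase (Oas) and Oas-like (Oasl) family was examined in mouse bone marrow derived macrophages (BMDMs) exposed to neuroblastoma-conditioned medium and to the Syk inhibitor R788 (fostamatinib). Its 6 members, Oas1a, Oas1g, Oas2, Oas3, Oasl1 and Oasl2, were taken by gene symbol from the 54232 genes of the count table. They were selected on their measured pattern over these same libraries, so their levels, fold changes and calls are a description and no p-value is given for them. Wild-type C57BL/6 BMDMs, 5 days into culture, were kept for a further 24 h in 6 conditions, each with 2 libraries. NS cells received no addition. NB9464 TCM and NBT3L TCM cells received tumor-conditioned medium (TCM) of the line named, R788 cells received the inhibitor at 500 nM, and the last pair of groups received the inhibitor together with NB9464 TCM or with NBT3L TCM. NB9464 is a mouse neuroblastoma line with amplified MYCN and NBT3L is a line without it, so each kind of TCM stands for 1 line. The methods of the study describe NB9464 TCM as serum-free. The preparation of NBT3L TCM, the medium of the NS cells, the vehicle of R788 and the pooling of mice were not described, so a difference between TCM and NS and a difference in base medium or serum cannot be told apart. Likewise, a difference with R788 and a difference from its vehicle cannot be told apart. All comparisons with NS share the same NS libraries.

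Oas enzymes are interferon-stimulated sensors of double-stranded RNA. On binding it they join ATP into 2'-5'-linked oligoadenylates (2-5A), a second messenger of the antiviral response. Oas1, Oas2 and Oas3 proteins differ in how many copies of the synthetase unit they hold. The Oasl proteins carry ubiquitin-like domains, and in the mouse Oasl2 keeps 2-5A synthesis whereas Oasl1 lacks it and is known to hold back translation of Irf7. In macrophages the family is part of the response to type I interferon, relayed by Stat2 and Irf9, among others, to the interferon-stimulated response element (ISRE) of promoters.

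RefSeq promoter windows (GRCm38.p6, 250 bases before to 50 after the start) were at hand for 5 of the 6 members, Oas1a, Oas1g, Oas3, Oasl1 and Oasl2. An ISRE core, spelled GAAANNGAAA or on the other strand TTTCNNTTTC, was searched on both strands. It was found in 3 of these 5 windows, beside 3.44% of all 32851 windows. The 100 bases before the start are shown to let the near-identical Oas1a and Oas1g flanks be compared with the others, in lower case with the core matches in capitals. They lie at chr5:120907526-120907625 (minus strand, Oas1a), chr5:120887614-120887713 (minus, Oas1g), chr5:120777660-120777759 (minus, Oas3), chr5:114923140-114923239 (plus, Oasl1) and chr5:114896834-114896933 (plus, Oasl2).
Oas1a: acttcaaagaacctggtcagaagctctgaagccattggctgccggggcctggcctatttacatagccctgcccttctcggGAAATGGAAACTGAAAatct
Oas1g: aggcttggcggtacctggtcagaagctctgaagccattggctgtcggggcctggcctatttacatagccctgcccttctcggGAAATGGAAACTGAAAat
Oas3: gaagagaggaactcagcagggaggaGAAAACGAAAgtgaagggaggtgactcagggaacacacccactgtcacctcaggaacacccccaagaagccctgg
Oasl1: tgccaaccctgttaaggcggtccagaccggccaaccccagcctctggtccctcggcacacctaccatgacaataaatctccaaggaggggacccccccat
Oasl2: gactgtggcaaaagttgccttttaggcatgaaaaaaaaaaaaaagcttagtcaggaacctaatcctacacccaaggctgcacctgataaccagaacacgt
Oas1a and Oas1g each held 2 overlapping cores, the nearer of which ended 5 bases before the start of Oas1a and 3 bases before that of Oas1g. With a shift of 2 bases, 91 of 98 compared bases of these flanks were identical, against 28 to 34 identical bases in the other pairs. The single core of Oas3 lay 75 to 66 bases before the start. No match in Oasl1 or Oasl2 says only that these letters are not in those windows.

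All members are protein-coding genes on chromosome 5 of mm10, in a pair of clusters. Oasl2 (chr5:114896936-114912234) and Oasl1 (chr5:114923240-114937915) lie on the plus strand. Oas2 (chr5:120730333-120749853), Oas3 (chr5:120753098-120777661), Oas1g (chr5:120876142-120887613) and Oas1a (chr5:120896256-120907521) lie on the minus strand. Counts are given per gene, and near-identical genes can share reads. Of the distinct 150-base stretches of Oas1a transcripts, 32.4% also occurred in transcripts of Oas1g, and 24.1% of those of Oas1g occurred in Oas1a. Of the 50-base stretches, 57.6% of those of Oas1a and 45.7% of those of Oas1g occurred in another gene. The other 4 members shared no 150-base stretch with any other annotated gene. The split between Oas1a and Oas1g is therefore uncertain, and their sum was also fitted. Exons of Oasl1 overlapped the antisense gene Gm13822 by 38 of 2608 bases, and Gm13822 held 0 to 50 counts per library. Whether counting used the strand was not stated.

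Libraries carry the labels' numbers, 1 and 2 for NS, 3 and 4 for NB9464 TCM, 5 and 6 for NBT3L TCM, 7 and 8 for R788, 9 and 10 for NB9464 TCM + R788, and 11 and 12 for NBT3L TCM + R788, and pairs of values below follow that order. Total counts per library were between 44977847 and 56449685, and 17275 to 18343 genes were detected in 11 libraries. Library 8, an R788 replicate, had the highest total but 16149 detected genes, and the R788 pair differed most between replicates. R788 comparisons are therefore also given without that library. All 8 macrophage markers were present, with summed levels of 1610370 to 2691346 normalized counts (counts divided by DESeq2 size factors). Lyz2 made up most of each sum. With TCM alone, log2 differences from NS (NB9464 TCM, then NBT3L TCM) were 1.59 and 1.98 for Adgre1. Itgam gave 0.91 and 0.66, Cd14 0.89 and 0.84, and Lyz2 0.29 and 0.41. Cd68 gave -0.65 and -0.38, and Mertk 0.52 and -0.68. Fcgr1 gave -0.16 and -0.04, and Csf1r -0.07 and 0.10. Syk, the target of R788, gave 1.18 and 1.32. Each was called except Fcgr1 in NBT3L TCM and Csf1r in NB9464 TCM. Neuroblastoma markers summed to 0 in NS, at most 1.82 with R788 alone and 23.9 to 71.1 in the TCM groups, with Th and Chga at 0 in every library. Granulocyte markers summed to 723 to 1505 without TCM and 5006 to 8057 with it, of which S100a8 was higher and Elane and Mpo lower in NB9464 TCM than in NS. With R788 alone Fcgr1 (-2.23), Cd14 (-1.06) and Cd68 (-0.42) were called lower and Mertk, Csf1r and Adgre1 higher, and Fcgr1 was also lower with R788 in both conditioned media (-0.91 and -1.13). Fibroblast markers summed to 572 to 672 in NS, 1221 to 1566 with R788 and 572 to 1640 over all libraries, and Col1a1 was called higher with R788 in cells given no TCM (1.23), NB9464 TCM (0.54) or NBT3L TCM (0.81). T cell, B cell and dendritic cell markers each summed to at most 28.7. The part of these differences in the results below was not tested. Levels were measured in bulk, so fewer cells that express a gene and less RNA per cell cannot be told apart. Nothing in the labels says that replicates came from separate mice or cultures, so errors and p-values measure the spread between libraries, which may be technical.

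In unstimulated macrophages all 6 genes were abundant. Per kilobase of gene length, the scale on which genes can be compared, Oas1a was highest in NS with 5379 ± 24.5 normalized counts (SD, n = 2). Oasl2 with 2926 and Oas3 with 2820 followed, and Oas2 with 1775, Oas1g with 1534 and Oasl1 with 1384 were lower. With R788 alone Oas1a was still highest, at 2571 per kilobase, but Oas2 with 1069 ranked above Oas3 with 853 and Oasl2 with 778, and Oasl1 with 186 remained lowest.

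**Figure D1:**
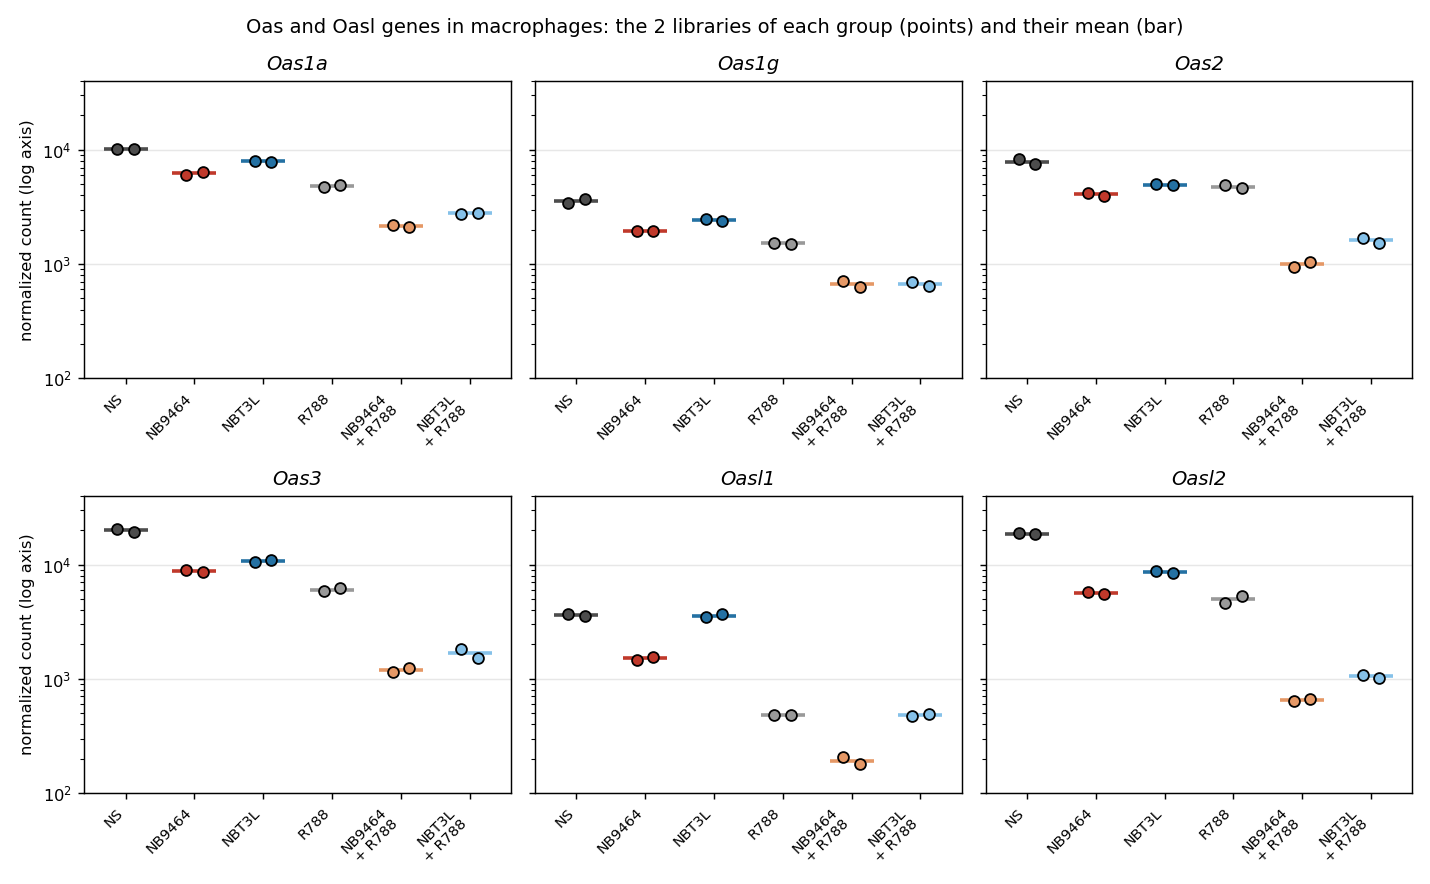
Normalized counts of the 6 genes on a log axis, by group, with points for the 2 libraries and a bar for their mean. Every gene was highest in NS, with NBT3L TCM at the same level for Oasl1, and the lowest mean was in NB9464 TCM + R788, or for Oas1g in both groups that received TCM and R788 together.

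Every member was lower with R788 alone than in NS. For Oas1a, which makes short 2-5A chains, the NS libraries held 10171 and 10106 normalized counts and the R788 libraries 4735 and 4956. Both R788 libraries were far below both NS libraries. Oas1g, its close paralog, went from 3456 and 3724 to 1528 and 1504. Oas2, a synthetase of intermediate size, went from 8333 and 7465 to 4889 and 4627. This was the smallest difference of the family, a log2 fold change of -0.73 ± 0.09 (SE). Oas3, the largest synthetase, went from 20588 and 19279 to 5849 and 6204, and Oasl2 from 18700 and 18604 to 4617 and 5300. Oasl1 showed the largest difference, from 3702 and 3516 to 485 and 483. In no case did the libraries of the 2 groups overlap. On the log2 scale the differences were -2.90 ± 0.11 for Oasl1 (7.45-fold lower), -1.91 ± 0.07 for Oasl2 (3.76-fold), -1.73 ± 0.08 for Oas3 (3.31-fold), -1.24 ± 0.10 for Oas1g (2.37-fold) and -1.06 ± 0.07 for Oas1a (2.09-fold). All 6 were called lower (DESeq2, adjusted p under 0.05 over the 16281 genes tested), a call that 15.0% of all tested genes received. Without library 8 they ranged from -0.69 for Oas2 to -2.90 for Oasl1 and all 6 calls remained.

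In NB9464 TCM every member was lower than in NS as well. Oasl2 fell the most, to 5715 and 5532 normalized counts, 3.32-fold below NS (log2 -1.73 ± 0.07). Oasl1 held 1468 and 1559 (2.38-fold lower) and Oas3 8938 and 8584 (2.28-fold lower). Oas2 with 4203 and 3953, Oas1g with 1947 and 1961 and Oas1a with 6034 and 6450 were 1.94-, 1.84- and 1.62-fold lower. None of these library pairs overlapped NS, and 6 of 6 were called lower, beside 16.9% of all tested genes.

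In NBT3L TCM 5 members were lower than in NS, and Oasl1 stood apart. Oasl1 held 3458 and 3701 normalized counts, overlapping the NS libraries, and its log2 difference was -0.01 with a 95% interval of -0.21 to 0.19. Oasl2 held 8721 and 8511 (2.16-fold lower than NS), Oas3 10550 and 10968 (1.85-fold), Oas2 5030 and 4903 (1.59-fold), Oas1g 2486 and 2381 (1.48-fold) and Oas1a 7979 and 7833 (1.28-fold). These 5 were called lower, beside 17.3% of all tested genes.

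Between the media, every member was lower in NB9464 TCM than in NBT3L TCM. The difference was largest for Oasl1 (log2 -1.24 ± 0.11, 2.37-fold) and next for Oasl2 (-0.62 ± 0.07). For Oas1a, Oas1g, Oas3 and Oas2 it was between -0.34 and -0.28. DESeq2 called 6 of 6, beside 5.72% of all tested genes, but edgeR called 4, without Oas1g and Oas2. Leaving out a library also thinned this count, to 3 without library 4 or library 6, to 4 without library 5 and to 5 without library 3. With R788 present, NB9464 TCM again had the lower levels for 5 members (called beside 6.09% of all tested genes), from -0.37 ± 0.07 for Oas1a to -1.32 ± 0.13 for Oasl1. Oas1g was the exception. Its libraries held 712 and 630 with NB9464 TCM + R788 and 697 and 637 with NBT3L TCM + R788, and the log2 difference was 0.01 with an interval of -0.21 to 0.23. When Oas1a and Oas1g were summed, their joint difference was -0.29 and was called. Oas1a supplies most of that sum, and the part of the read split in the Oas1g value was not tested.

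Every member was also lower with R788 in both conditioned media. In NB9464 TCM, adding R788 took Oasl2 to 640 and 669 normalized counts, 8.60-fold below NB9464 TCM alone (log2 -3.10 ± 0.08). Oasl1 reached 205 and 179 (7.87-fold lower) and Oas3 1141 and 1244 (7.35-fold). Oas2 reached 952 and 1047 (4.08-fold), Oas1g 2.91-fold and Oas1a, at 2206 and 2110, 2.89-fold lower levels. In NBT3L TCM, Oasl2 reached 1089 and 1020 (8.17-fold lower), Oasl1 471 and 488 (7.46-fold) and Oas3 1840 and 1528 (6.39-fold). Oas1g was 3.65-fold, Oas2, at 1702 and 1517, 3.09-fold and Oas1a, at 2763 and 2813, 2.84-fold lower. All 6 were called in each medium, beside 8.70% of all tested genes in NB9464 TCM and 7.24% in NBT3L TCM.

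With both treatments the family reached its lowest levels. In NB9464 TCM + R788, Oasl2 stood at 3.51% of its NS mean, Oasl1 at 5.32%, Oas3 at 5.98%, Oas2 at 12.7%, Oas1g at 18.7% and Oas1a at 21.3%. In NBT3L TCM + R788 the same genes stood at 5.65%, 13.3%, 8.45%, 20.4%, 18.6% and 27.5%. All 6 were called lower than NS in both groups, beside 19.4% and 19.7% of all tested genes. Oas1a thus kept the largest share of its NS level in both groups, and Oasl2 the smallest.

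**Figure D2:**
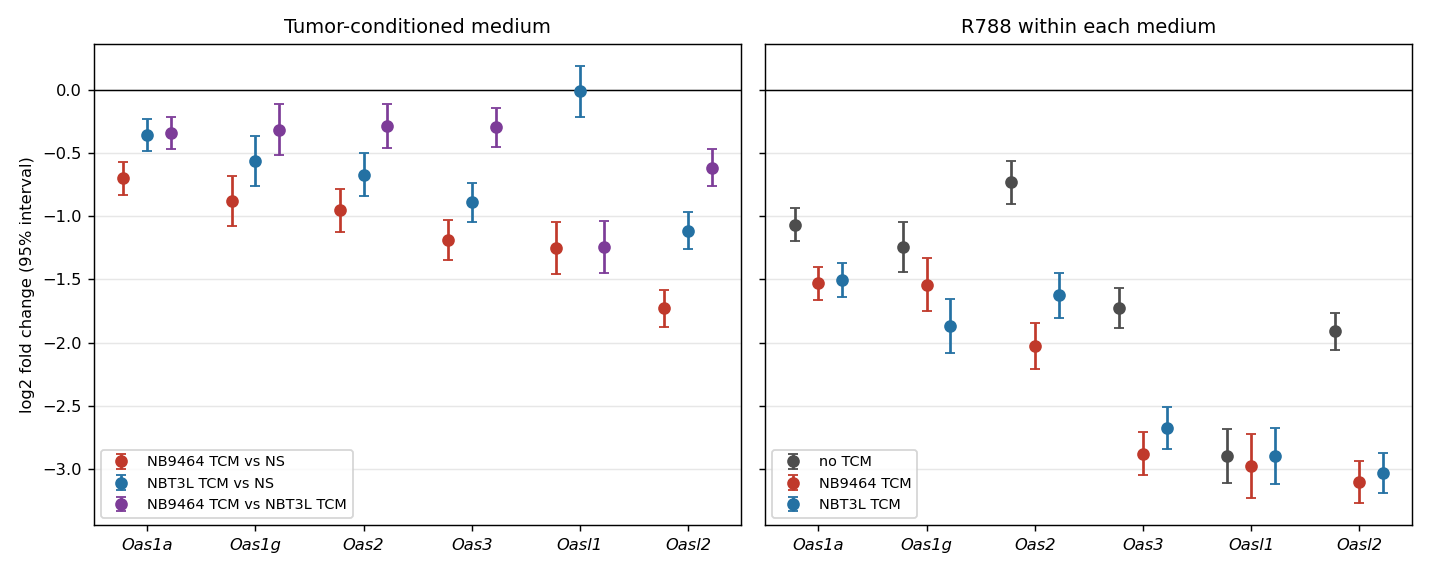
Log2 fold changes of the 6 genes with 95% intervals, for tumor-conditioned medium (left) and for R788 within each medium (right). Oasl1 sits at -0.01 for NBT3L TCM against NS, and its R788 effects are -2.90, -2.98 and -2.90, whereas R788 effects of Oas2, Oas3 and Oasl2 are more negative in both conditioned media than without TCM.

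The size of the R788 effect was compared between media by interaction contrasts, which share the R788 and NS libraries. For Oas2 the effect in cells given no TCM was -0.73, against -2.03 in NB9464 TCM and -1.63 in NBT3L TCM, so that the differences from no TCM were -1.30 ± 0.13 and -0.89 ± 0.13. Oasl2 showed -1.91, -3.10 and -3.03, with differences of -1.19 ± 0.11 and -1.12 ± 0.11. Oas3 showed -1.73, -2.88 and -2.68, with differences of -1.15 ± 0.12 and -0.95 ± 0.12. The differences were smaller for Oas1a (-0.47 ± 0.09 and -0.44 ± 0.09) and Oas1g (-0.30 ± 0.15 and -0.62 ± 0.15). For Oasl1 the effects were -2.90, -2.98 and -2.90, and the differences of -0.08 and -0.002 had intervals of -0.41 to 0.25 and -0.31 to 0.31. A more negative R788 effect was called for 4 members in NB9464 TCM, all but Oas1g and Oasl1, beside 6.26% of all tested genes, and for 5 in NBT3L TCM, all but Oasl1, beside 4.96%. Without library 8 these calls remained, with differences of -1.09 and -1.02 for Oasl2 and -1.34 and -0.93 for Oas2. When Oas1a and Oas1g were summed, with all libraries, their joint difference in NB9464 TCM was -0.42 and was called. Oas1a supplies most of that sum, and the part of the read split in the missing call of Oas1g was not tested. The R788 effects in the 2 conditioned media were not called different from each other for any member, beside 0.706% of all tested genes. There DESeq2 gave 2 of 6 members an unadjusted p under 0.05, Oas1g and Oas2, and edgeR called 0.

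The order of groups differed between members. Oas1a, Oas1g, Oas3 and Oasl2 followed the order NS, NBT3L TCM, NB9464 TCM, R788, NBT3L TCM + R788 and NB9464 TCM + R788, and neighbours did not overlap except for Oas1g, in which the last 2 groups coincided. Oas2 alone had R788 above NB9464 TCM, with R788 at 4889 and 4627 just under NBT3L TCM at 5030 and 4903. For Oasl1, NS and NBT3L TCM overlapped, as did R788 and NBT3L TCM + R788. Over the 12 libraries, which share these 6 groups, Pearson's r of log2(normalized count + 1) between members ran from 0.841 for Oas2 with Oasl1 to 0.996 for Oas3 with Oasl2. By the same measure the genes most like the mean profile of the family, among 10709 candidates, were Stat2 (r = 0.995), Rnf213 (0.995), Ifi202b (0.995), Cmpk2 (0.994) and Rigi (0.993, listed as Ddx58).

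Among the other Oas1 genes of the mouse, Oas1b was called lower with R788 in each medium. Oas1b, annotated as a polymorphic pseudogene and known for the flavivirus resistance of strains with an intact copy, held 625 and 704 normalized counts in NS, 318 and 448 with R788 and 132 and 144 with NB9464 TCM + R788. It was lower with R788 in cells given no TCM (log2 -0.79 ± 0.25, DESeq2 adjusted p = 0.0082), in NB9464 TCM (-1.64 ± 0.27, adjusted p = 2.54e-08) and in NBT3L TCM (-0.99 ± 0.26, adjusted p = 0.00172). In NB9464 TCM alone its difference from NS was -0.63 ± 0.25 (adjusted p = 0.0397), a call lost when any 1 of the 4 libraries was left out. The call with R788 alone was lost without library 2 or library 7, where the difference was -0.71 and -0.57, and the call in NBT3L TCM without library 5 or library 12 (-0.84 and -0.69). Oas1c held 237 to 449 normalized counts in every library and was called in no comparison. Oas1h held at most 21 normalized counts and none in both NB9464 TCM + R788 libraries, where it was called lower than NS, and Oas1d, Oas1e and Oas1f were too low to test.

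Among genes of the 2-5A pathway, Abce1, also a ribosome recycling factor, was lower with R788 without TCM, at 4387 and 4380 against 7179 and 6476 (log2 -0.64 ± 0.08, adjusted p = 1.5e-13). In NB9464 TCM its R788 effect was -0.28 ± 0.08 (adjusted p = 0.00485), lost without library 3 or 9, and in NBT3L TCM -0.25 ± 0.08 (adjusted p = 0.0165), a call that edgeR did not make and that was lost without library 5, 6 or 11 (-0.28 to -0.21). Against NS, Abce1 was called higher in NB9464 TCM (0.23) and NBT3L TCM (0.29), and both calls were lost without library 2. The R788 effect on Abce1 was called less negative in NB9464 TCM (0.36) and NBT3L TCM (0.39) than without TCM. That direction is opposite to the calls of the members. Both of these calls were lost without library 1, and edgeR did not make that in NB9464 TCM.

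Of the enzymes that degrade 2-5A, Enpp1 was lower in NB9464 TCM, at 437 and 285 against 865 and 731 in NS (log2 -1.14 ± 0.27, adjusted p = 8.59e-05). Its difference in NBT3L TCM was -0.44 ± 0.26 (adjusted p = 0.205). Pde12 was lower with R788 alone by a small amount (-0.30 ± 0.12, adjusted p = 0.0472), a call that edgeR did not make and that was lost without library 1, 2 or 8. Akap7 was called in no comparison. The median log2 difference of all tested genes lay between -0.01 and 0.02 in every comparison.

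The listed interferon effectors and most RNA sensors fell with R788 too, whereas the interferon signal genes were mixed. All 10 effectors on the list, among them Isg15, Mx1, Rsad2 and Ifit1, were called lower with R788 in each medium by DESeq2, with medians of -2.71 (no TCM), -2.64 (NB9464 TCM) and -2.66 (NBT3L TCM). Of all tested genes, 15.0%, 8.70% and 7.24% were called lower. edgeR called 9 of 10 effectors in both conditioned media. For the synthetase family the same medians were -1.48, -2.45 and -2.27. Of 8 RNA sensors, 6, 6 and 7 were called lower, beside the same shares of all tested genes. Rigi, Ifih1 and Zbp1 were among them, and Mavs, the shared adaptor of Rigi and Ifih1, was called in no comparison. Of 12 interferon signal genes tested, 6 were called lower and 4 higher with R788 without TCM (median -0.19). In NB9464 TCM 5 were lower and 2 higher (median -0.04), and in NBT3L TCM 6 were lower and 1 higher (median -0.29). The lower calls stand beside the same shares of all tested genes. Stat2, the transducer whose profile was most like that of the family, had a log2 difference of -1.11 ± 0.06 with R788 without TCM, which its likeness to the members already implies. The receptor gene Ifnar1 was higher with R788 without TCM (0.15, adjusted p = 0.012) and was not called in either conditioned medium.

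The same interaction was computed for the other lists. In NB9464 TCM the R788 effect was more negative than without TCM for 1 of 10 effectors (Cmpk2, -0.84 ± 0.17), beside 6.26% of all tested genes. Cmpk2 and Rigi are among the 5 genes most like the family over these libraries, so no p-value is given for them. The effect was less negative for 4 effectors (Ifi44, Ifit2, Isg15 and Bst2), beside 6.22% of all tested genes called in that direction, and edgeR called 2 of these. Ifi44 was low there. It held 930 and 952 normalized counts in NS, 49.7 and 65.0 in NB9464 TCM and 8.0 and 33.3 with R788 added. In NBT3L TCM 2 effectors were more negative and 1 less negative, beside 4.96% and 5.17% of all tested genes, and edgeR called 0 in either direction. The effector medians were 0.34 and 0.08, against -0.81 and -0.76 for the Oas and Oasl genes. The medians were -0.14 and -0.17 for the interferon signal genes and -0.16 and -0.24 for the RNA sensors. Of 12 interferon signal genes tested, 3 were more negative in each medium, beside 6.26% and 4.96% of all tested genes, and edgeR called 2 in each. In NB9464 TCM 1, Socs1, was called in the other direction (1.09), beside 6.22%, and its R788 effect there was above 0 (0.32). Of the RNA sensors 0 were called in NB9464 TCM by DESeq2 and by edgeR, with an unadjusted p under 0.05 for 3 more negative and 1 less negative. In NBT3L TCM 3 sensors were more negative, among them Rigi (-0.60 ± 0.12), and 1 was less negative (Dhx58, 0.35 ± 0.11, adjusted p = 0.0177). The shares of all tested genes were again 4.96% and 5.17%. edgeR called 1 in each direction. Whether the lists differ from the family was not tested, since its members were selected on these data.

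**Figure D3:**
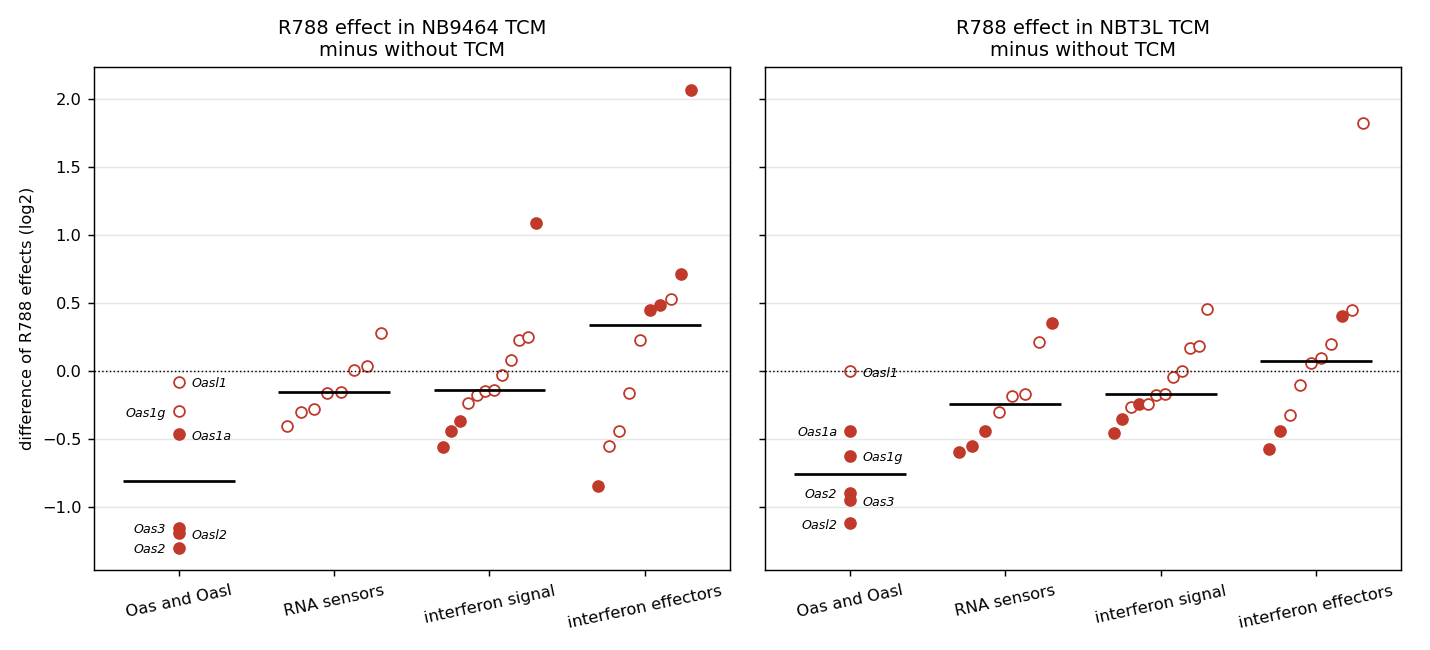
Difference of the R788 effect with and without TCM (log2) for each gene of 4 lists, in NB9464 TCM (left) and NBT3L TCM (right). Filled points were called (adjusted p under 0.05), open points were not, and bars are list medians, which lie at -0.81 and -0.76 for the Oas and Oasl genes.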

How the data were processed

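RNA was poly(A)-selected and sequenced from 12 BMDM libraries. The authors deposited whole-number read counts per Ensembl gene, not normalized. By their methods, reads were mapped to mm10 with STAR and quantified with Salmon, and the submitters' processing notes name STAR 2.6.1d and Salmon 1.4.0. Strand use and the handling of multi-mapping reads are not given in the sources used here. The labels state paired-end reads of 150 bases, the methods single reads in triplicate. Among counts of 1 to 40, 65.2% to 67.9% were even, so both mates may have been counted. Counts divided by 2 were an alternative.

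The 16281 genes that reached 10 counts in 2 or more libraries were fitted with DESeq2 1.42.0 in R 4.3.3 as group means over all 12 libraries, with Wald tests, unshrunken log2 fold changes and Benjamini-Hochberg adjustment per contrast over all genes tested, and called at an adjusted p under 0.05. Intervals are 95% Wald intervals. Depth was 44977847 to 56449685 counts per library. Gene models were GENCODE M21, which held 54079 of 54232 IDs, and promoters RefSeq. The alternatives were edgeR 4.0.16 (quasi-likelihood, TMM), TMM scaling, other count filters, a 2-fold minimum, fits of only the libraries compared, each library left out and, for Oas1a and Oas1g, their sum. The fit was tested on simulated data.

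The members and gene lists were chosen with earlier results of these data known. The genes named were the 6 members, the remaining Oas1 genes, the 2-5A pathway list (a gene of which is not reported here) and the 5 genes most correlated with the family among those with a mean of at least 100 normalized counts. Other genes were named from the fixed lists of RNA sensors, interferon signal and interferon effectors after their values were seen. Groups were taken from the labels.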

Additional observations from a re-analysis of the deposited data

Results flagged for a closer look

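In 9 cases the effect of R788 on a member differed between media by the interaction contrast of DESeq2 (adjusted p under 0.05). The cases are not separate, since all share the R788 and NS libraries, and Oas1a and Oas1g can share reads. A more negative effect was called for 6.26% of all tested genes in NB9464 TCM and for 4.96% in NBT3L TCM. Relative to the R788 effect without TCM, the effect in NB9464 TCM was more negative by a log2 difference of -0.47 for Oas1a, -1.30 for Oas2, -1.15 for Oas3 and -1.19 for Oasl2. In NBT3L TCM the differences were -0.44 for Oas1a, -0.62 for Oas1g, -0.89 for Oas2, -0.95 for Oas3 and -1.12 for Oasl2. Because the members were selected on these libraries, the values are a description. Granulocyte marker sums were higher in every TCM library through S100a8, whereas Elane and Mpo were called lower in each TCM alone than in NS. These sums differ with TCM, but no granulocyte marker was called in either interaction (S100a8 0.08 in NB9464 TCM). Of the 8 macrophage markers, 4 were called higher and 2 lower in the interaction in NB9464 TCM. In NBT3L TCM 4 were called higher and 3 lower. Fcgr1 (1.32 and 1.10) and Cd14 (0.93 and 0.82) differed most. Library 8, with its low number of genes detected, enters every one of these contrasts. The part of the markers and of library 8 was not tested. Without library 8 the 9 calls remained.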

How the results depend on the processing

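Of 888 values of the members recomputed under an alternative, 852 kept their side of the threshold, 33 lost the call, 2 gained it and 1 reversed. A change of sign where neither fit was called counts among the 852. Oasl1 in NBT3L TCM against NS, for example, ran from -0.06 to 0.04. Requiring a 2-fold difference left 5 members called for R788 against NS (without Oas2), 3 for the interaction in NB9464 TCM (without Oas1a), 3 for NB9464 TCM against NS, 1 for NBT3L TCM against NS, 1 for NB9464 TCM against NBT3L TCM, 1 for the same comparison with R788 and 1 for the interaction in NBT3L TCM. Leaving out a library gave 3 to 5 of 6 members for NB9464 TCM against NBT3L TCM and the same count as with all libraries in the other 11 comparisons. Fitting only the libraries compared called 1 member, Oas2 (-0.40), for the R788 effect in NB9464 TCM minus NBT3L TCM. Oas1g in NB9464 TCM + R788 against NBT3L TCM + R788 reversed to -0.29 when summed with Oas1a, whose larger counts lead that sum. For the interaction in NB9464 TCM, Oas1g gained the call by the same sum (-0.42).

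For the other lists, recomputed by alternatives added after seeing the data, the R788 counts within each medium stayed within 1.5 times. Effectors called lower for the interaction in NBT3L TCM numbered 0 by edgeR and 1 by TMM scaling, and 0 to 2 with a library left out. In NB9464 TCM they numbered 1 to 2 with a library left out. Interferon signal genes called lower numbered 2 to 4 for NBT3L TCM against NS and, for the interactions, 1 to 4 in NB9464 TCM and 1 to 3 in NBT3L TCM with a library left out, and 1 in NB9464 TCM when only the libraries compared were fitted. RNA sensors in NB9464 TCM numbered 1 with a mean of at least 50 counts and 0 to 2 with a library left out. In NBT3L TCM they numbered 1 by edgeR and 1 to 3 with a library left out. The cause of these changes was not tested. By the rule used for the members, of 284 values of Abce1, Enpp1, Pde12 and Oas1b, 247 were the same, 30 lost and 7 gained the call, and 0 reversed. No paired analysis was possible because the groups share no replicate number. With 2 libraries a group, differences near 0.3 on the log2 scale were called or lost by the choice of test, as for Oas1g and Oas2 between the conditioned media.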

Other observations

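Among the interferon signal genes, Irf7, a transcription factor that amplifies interferon production, was lower with R788 in each medium. It held 25056 and 25319 normalized counts in NS and 4008 and 4138 with R788 alone (log2 -2.63 ± 0.06), and the effect was -2.80 in NB9464 TCM and -2.63 in NBT3L TCM. Socs1, an inhibitor of Jak kinases, moved opposite to the synthetases with TCM but not with R788 alone, where it held 120 and 171 normalized counts. It held 282 and 215 normalized counts in NS, 1156 and 1087 in NB9464 TCM and 2655 and 2635 in NBT3L TCM (log2 2.17 ± 0.17, DESeq2 adjusted p = 2.5e-36, and 3.41 ± 0.17, adjusted p = 6.62e-90). Ifnb1, which encodes interferon beta, had 8 and 10 counts in the NBT3L TCM libraries and 0 in the other 10 libraries, and was too low to test. Cgas, which encodes the DNA sensor related in fold to the synthetases, and Sting1, its adaptor, were both lower than NS with each treatment. For Cgas the differences were -1.01 ± 0.17 in NB9464 TCM (adjusted p = 1.05e-08), -0.71 ± 0.17 in NBT3L TCM (adjusted p = 0.000108) and -0.97 ± 0.17 with R788 alone (adjusted p = 7.22e-08). For Sting1 they were -1.17 ± 0.13 (adjusted p = 1.35e-17), -1.74 ± 0.14 (adjusted p = 4.31e-36) and -0.36 ± 0.13 (adjusted p = 0.0245). With R788 added to NB9464 TCM or NBT3L TCM, Cgas was called lower than in that medium alone (-0.91 and -1.01). Sting1 was not called in either (-0.09 and 0.36). Its R788 effect in NBT3L TCM differed by 0.72 from that without TCM, a difference called higher.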
